A study of Homo sapiens with 10 samples.

Results

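The HOX cluster genes were described in RNA sequencing of IMR90, a human fibroblast line established from fetal lung. The members were the protein-coding genes whose symbol is HOXA, HOXB, HOXC or HOXD followed by a number. This gave 39 of the 57736 genes in the count table: 11 in HOXA, 10 in HOXB, 9 in HOXC and 9 in HOXD. The rule uses symbols and gene types and no measured value, but it was set with earlier results of these data known.

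The 10 samples formed 5 groups of 2. Control cells carried an empty retrovirus and a non-targeting siRNA, and senescent control cells carried a retrovirus expressing RAS and a non-targeting siRNA. The other 3 groups were also RAS cells. They were METTL3 knockout cells, METTL3 knockout cells with a wild type METTL3 knock-in and METTL3 knockout cells with a mutant METTL3 knock-in. Knockout is the titles' word for what the labels' protocols describe as siRNA, given from day 4 after the retrovirus, and knock-in is their word for a lentivirus. The titles and the column names of the table give METTL3, but METTL14 is the gene named in the protocol text. The sources used here do not give the mutation. Column names of the knockout samples contain vec, and those of the senescent control samples do not. No source used here explains this or says whether either group received an empty lentivirus, so these groups may differ in that too. Replicates are not described as separate cultures. The p-values therefore reflect the spread between the deposited samples, estimated over all 5 groups together, and this spread may be technical. It was widest in control. The chi-square of the 2 samples against counts expected from depth averaged 33.7 per gene there, against 5.17 to 7.99 in the other groups. Standard errors and p-values of the comparison with control therefore do not measure the spread of control alone.

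HOX genes encode homeodomain transcription factors that give cells their position along the body axis. They lie in 4 clusters on different chromosomes, and within a cluster the position number follows the gene order: genes with low numbers act toward the head, and genes with high numbers toward the tail and the limb tips. Adult and cultured fibroblasts keep a HOX pattern that reflects the site they came from, and lung mesenchyme is known for genes of the anterior and central parts of HOXA and HOXB. Polycomb complexes keep silent HOX genes repressed, Trithorax complexes keep active ones on, and retinoic acid is a classical inducer of the anterior genes. METTL3 is the catalytic subunit of the enzyme that writes N6-methyladenosine in RNA.

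Total counts per sample ran from 16293975 to 23570266, and the HOX genes together held 3770 to 9074 of them. Mean METTL3 expression was 77.0 CPM (counts per 1e6 counts of the library) in control, 52.3 in senescent control, 26.0 in the knockout, 58254.9 in the wild type knock-in and 130941 in the mutant knock-in. In the knock-ins METTL3 made up a large share of all reads: 5.86% and 5.87% with wild type and 11.3% and 14.2% with mutant METTL3. HRAS, a RAS gene (the labels do not say which was used), averaged 14.7 CPM in control, 61.2 in senescent control, 40.2 in the knockout, 46.1 in the wild type knock-in and 26.7 in the mutant knock-in. All CPM below use library totals scaled by edgeR's TMM factors. The summed level of 8 fibroblast markers, mostly VIM, COL1A1 and COL1A2, ran from 13944 to 17216 CPM in control and from 5159 to 5828 CPM in the mutant knock-in. The other groups lay between 7797 and 10514 CPM. The markers did not all fall. In senescent control 6 of the 8 were called lower, but PDGFRA averaged 334 CPM against 282 in control, not called. FAP averaged 57.3 CPM in control, 78.6 in senescent control, 100 in the knockout, 120 in the wild type and 126 in the mutant knock-in. Of 8 lung epithelial markers, NKX2-1, SFTPC and KRT5 were at 0 counts in every sample, and EPCAM, CDH1 and SFTPB reached at most 0.877 CPM. The summed level of the 8, mostly KRT18 and KRT8, ran from 46.7 to 52.7 CPM in control, 28.9 to 31.0 in senescent control, 28.3 to 29.1 in the knockout, 25.7 to 26.1 in the wild type knock-in and 19.9 to 24.1 in the mutant knock-in. KRT8 and KRT18 fell in senescent control, by 1.03 and 0.72 on the log2 scale. The part of these markers in the HOX results was not tested, and in bulk RNA fewer cells of a type and less RNA per cell cannot be told apart.

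The HOX genes of these cells came from 2 clusters. A gene is called silent here when it held fewer than 10 counts over all 10 samples, tested when it passed edgeR's filter on low counts (about 0.547 CPM in 2 samples), and low when it fell between. By this rule 16 genes were tested, 6 were low and 17 were silent. HOXB held 8 tested genes, HOXB2 to HOXB9, and HOXA held 7, which ended at HOXA7. Of these, HOXB9 passed the filter only through the knock-ins and HOXA6 only through control. The only tested gene elsewhere was HOXC8, a gene of the thoracic body segments, and all 9 HOXD genes were silent.

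**Figure D1:**
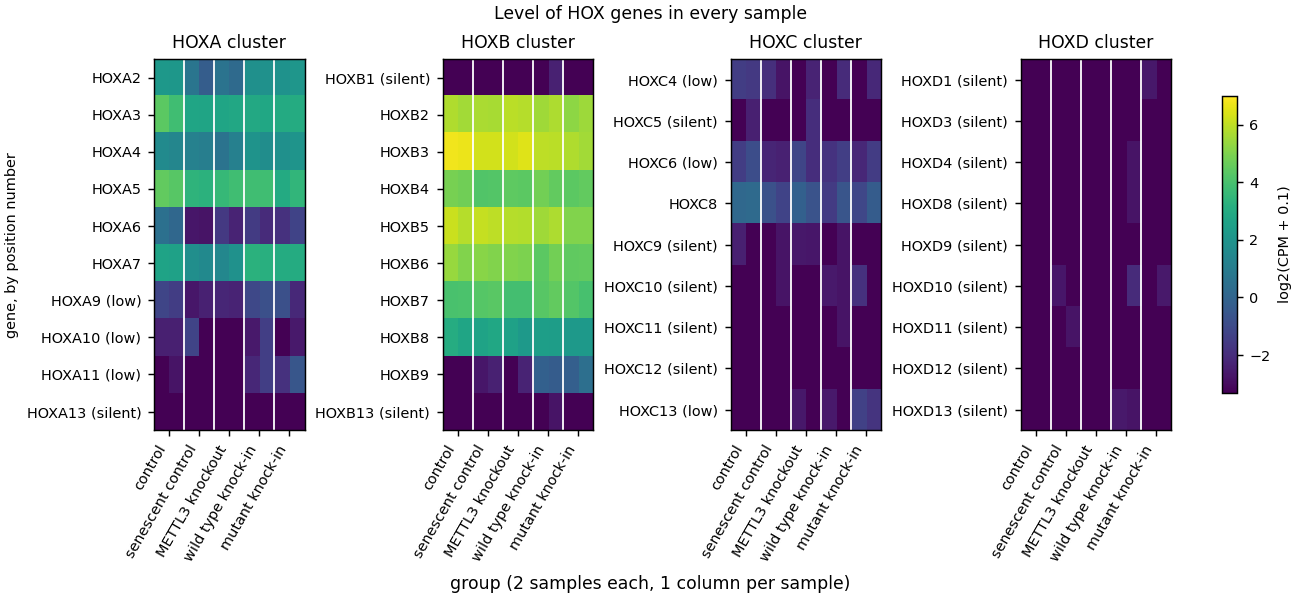
Expression of the HOX genes (colour, log2 of CPM + 0.1), with 1 panel per cluster, genes as rows in position order, and the 10 samples as columns by group; silent and low genes are marked. Tested genes end at HOXA7 in HOXA and run from HOXB2 to HOXB9 in HOXB, with HOXB9 near 0 outside the knock-ins. HOXC8 is the brightest HOXC row, and the HOXD panel is nearly empty in all 5 groups.

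Within each active cluster the tested genes were neighbours. In HOXA all 4 genes at positions 4 to 8 were tested, and none of the 4 at positions 9 to 13 was. HOXA9, HOXA10 and HOXA11 held 47, 18 and 21 counts over the 10 samples, and HOXA13, which patterns the digits and the urogenital tract, held 0. In HOXB the anterior gene HOXB1, which acts in the hindbrain, held 2 counts and the posterior gene HOXB13, known from the prostate, held 1, so that both ends of the cluster were silent around 8 tested genes.

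HOXC and HOXD gave almost no reads. HOXC4 held 22 counts in all, HOXC6 held 44 and HOXC13, a gene of hair and nails, held 10. The silent HOXC genes were HOXC5, HOXC9, HOXC10, HOXC11 and HOXC12, with 0 to 6 counts each. All HOXC genes together held 78 counts in control, 26 in senescent control, 41 in the knockout, 33 in the wild type knock-in and 36 in the mutant knock-in. All HOXD genes together held 0, 2, 0, 7 and 2 counts in the same order, 11 in total. HOXD10, the HOXD gene with the highest mean CPM, held 5 counts: 1 in the first senescent control sample, 3 in the second wild type knock-in sample and 1 in the second mutant knock-in sample. HOXD3, HOXD9 and HOXD12 held none.

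Levels of different genes were compared per kilobase of exon sequence, counting all annotated exons of a gene together. The order depends on this length, which was 7456 bases for HOXB3 and 2041 for HOXB5. Before this division HOXB3 was the higher of the 2 in control, at a mean of 107 against 64.8 CPM. HOXB5, which acts in lung branching, had the highest level in control, at 31.7 ± 5.07 CPM per kilobase (SD, n = 2). HOXB2 followed at 21.8 ± 2.04, then HOXB6 at 14.5 ± 2.36 and HOXB3 at 14.3 ± 0.543, of which HOXB6 and HOXB3 did not differ beyond their spread. The highest HOXA gene was HOXA5, which is required for normal lung and trachea development, at 12.5 ± 1.34 CPM per kilobase, with HOXB7 next at 11.0 ± 0.219. HOXA3 reached 4.10 ± 1.10, HOXA7 2.52 ± 0.128, HOXA2 1.77 ± 0.0603, HOXA4 1.58 ± 0.136 and HOXA6 0.894 ± 0.180. HOXB5 was also first in senescent control (32.2), the knockout (27.9) and the wild type knock-in (24.4). In the mutant knock-in, HOXB2 at 17.6 ± 2.03 and HOXB5 at 16.2 ± 0.154 CPM per kilobase did not differ beyond their spread.

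The 2 active clusters followed different courses over the groups. Summed HOXA expression was 63.3 and 51.6 CPM in the control samples, 27.6 and 25.5 in senescent control, 28.6 and 33.2 in the knockout, 49.2 and 49.1 in the wild type knock-in and 41.8 and 44.1 in the mutant knock-in. HOXA was thus high in control and in both knock-ins and low in the other 2 groups, with no overlap between these high and low samples. Summed HOXB expression was 332 and 293 CPM in control, 278 and 270 in senescent control, 272 and 276 in the knockout, 230 and 247 in the wild type knock-in and 192 and 193 in the mutant knock-in. HOXB was highest in the control samples and lowest in the mutant knock-in samples, and senescent control and knockout samples overlapped. As a percentage of HOXB, HOXA stood at 17.6% and 19.0% in control, 9.44% and 9.94% in senescent control, 10.5% and 12.02% in the knockout, 19.9% and 21.4% in the wild type knock-in and 21.8% and 22.8% in the mutant knock-in. Because this ratio is taken within a sample, it does not depend on the library scaling.

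**Figure D2:**
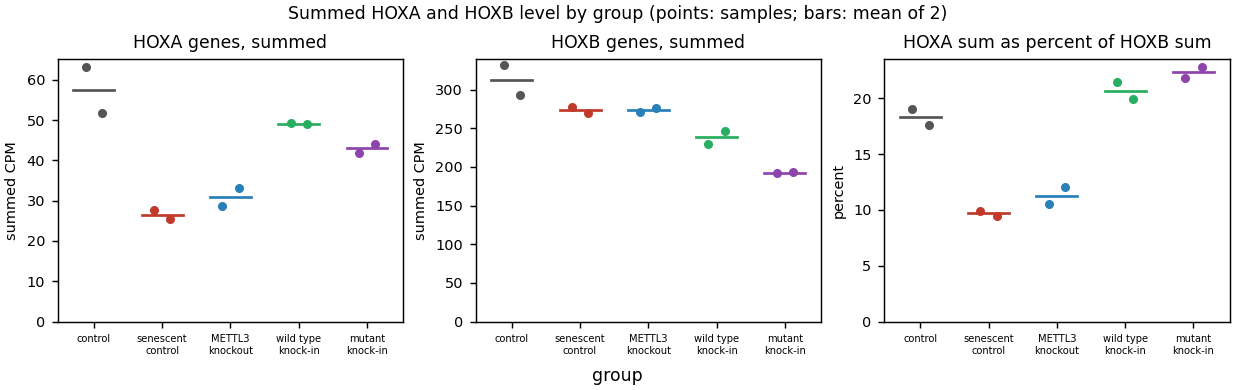
Summed expression of HOXA and of HOXB (CPM, linear axes) in each of the 10 samples, with the group mean as a line, and HOXA as a percentage of HOXB in the same sample. HOXA falls between control and senescent control and is higher again in both knock-ins, while HOXB is lowest in the mutant knock-in at 192 and 193 CPM.

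Over the 5 groups, 15 of the 16 tested HOX genes differed in edgeR's F test at an adjusted p below 0.05, against 77.6% of all genes tested, so this share is high for genes at large too. The exception was HOXC8, with an adjusted p of 0.0757. Of the 16, 13 were over the filter in both samples of every group. The others passed it through fewer groups: HOXA6 through control, HOXB9 through the knock-ins and HOXC8 through control and the knockout.

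The first comparison asked what RAS-induced senescence did to the HOX genes. Between senescent control and control, 8 of the 16 tested HOX genes fell and 0 rose, where 45.0% of all 16760 genes tested were called, 25.3% lower and 19.7% higher. Of the 13 genes over the filter in every group, 6 fell. The median log2 fold change was -0.42 for the HOX genes and -0.03 for all genes. In HOXA 5 of 7 tested genes fell, with a median of -1.08, and in HOXB 2 of 8, with a median of -0.08. HOXA6 is among the 5 and passed the filter through control, where it was high. Of the genes over the filter in every group, 4 of 6 in HOXA and 2 of 7 in HOXB fell. The difference between the clusters was not tested.

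Among the anterior HOXA genes, HOXA2 and HOXA3 fell. HOXA2, which sets the identity of the second pharyngeal arch, was at 4.46 and 4.26 CPM in control, 1.54 and 0.730 in senescent control, 1.44 and 1.10 in the knockout, 3.54 and 3.59 in the wild type knock-in and 3.70 and 4.18 in the mutant knock-in. Every sample of control and of the knock-ins lay above every sample of the other 2 groups. HOXA2 fell by 1.97 on the log2 scale in senescent control (SE 0.28, adjusted p 0.000126). Its level fell by 74.5%. HOXA3, which is needed for the thymus and parathyroid, was at 21.0 and 14.3 CPM in control and at 6.58 and 6.35 in senescent control. It then lay at 6.64 and 7.20 CPM in the knockout, 7.38 and 7.04 in the wild type knock-in and 7.75 and 7.98 in the mutant knock-in. HOXA3 was high in control alone, its 8 RAS samples lying between 6.35 and 7.98 CPM. Its log2 fold change in senescent control was -1.45 (SE 0.17, adjusted p 2.98e-05), and its level fell by 63.4%.

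Among the central HOXA genes, HOXA5, HOXA6 and HOXA7 fell. HOXA5 was at 23.0 and 19.8 CPM in control, 10.4 and 9.82 in senescent control, 11.9 and 14.0 in the knockout, 14.2 and 14.2 in the wild type knock-in and 7.75 and 11.1 in the mutant knock-in. Both control samples were above all RAS samples. HOXA5 fell by 1.08 on the log2 scale in senescent control (SE 0.15, adjusted p 0.000137), and its level fell by 52.8%. HOXA6, a gene of the upper thoracic segments, held 30 and 22 counts in control, 1 and 1 in senescent control, 4 and 2 in the knockout, 4 and 3 in the wild type knock-in and 3 and 5 in the mutant knock-in, or 1.31 and 0.985 CPM in control and at most 0.317 CPM elsewhere. Its control samples stood above all others with no overlap. From the counts, HOXA6 was 23.1-fold lower in senescent control, with a 95% interval of 6.08 to 196 that covers counting error only (exact, 2 against 52 counts). The adjusted p was 0.000188, for a gene that passed the filter only through control, where it was high.

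HOXA7, a thoracic gene, was at 6.30 and 5.87 CPM in control, 3.29 and 2.92 in senescent control, 2.66 and 3.60 in the knockout, 9.64 and 8.999 in the wild type knock-in and 8.05 and 8.17 in the mutant knock-in. The knock-in samples were the highest, above control, and senescent control and knockout the lowest. Its log2 fold change in senescent control was -0.97 (SE 0.17, adjusted p 0.000669). HOXA4, a gene of the cervical segments, was at 2.93 and 2.60 CPM in control and 2.19 and 2.01 in senescent control. These ranges did not overlap, but the log2 fold change of -0.40 did not pass the test (SE 0.23, adjusted p 0.177). The posterior gene HOXA9, known from blood progenitors and leukaemia, was below the filter: it held 8 and 6 counts in control and 1 and 2 in senescent control, a 4.15-fold lower level with a 95% counting interval of 1.16 to 22.5.

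**Figure D3:**
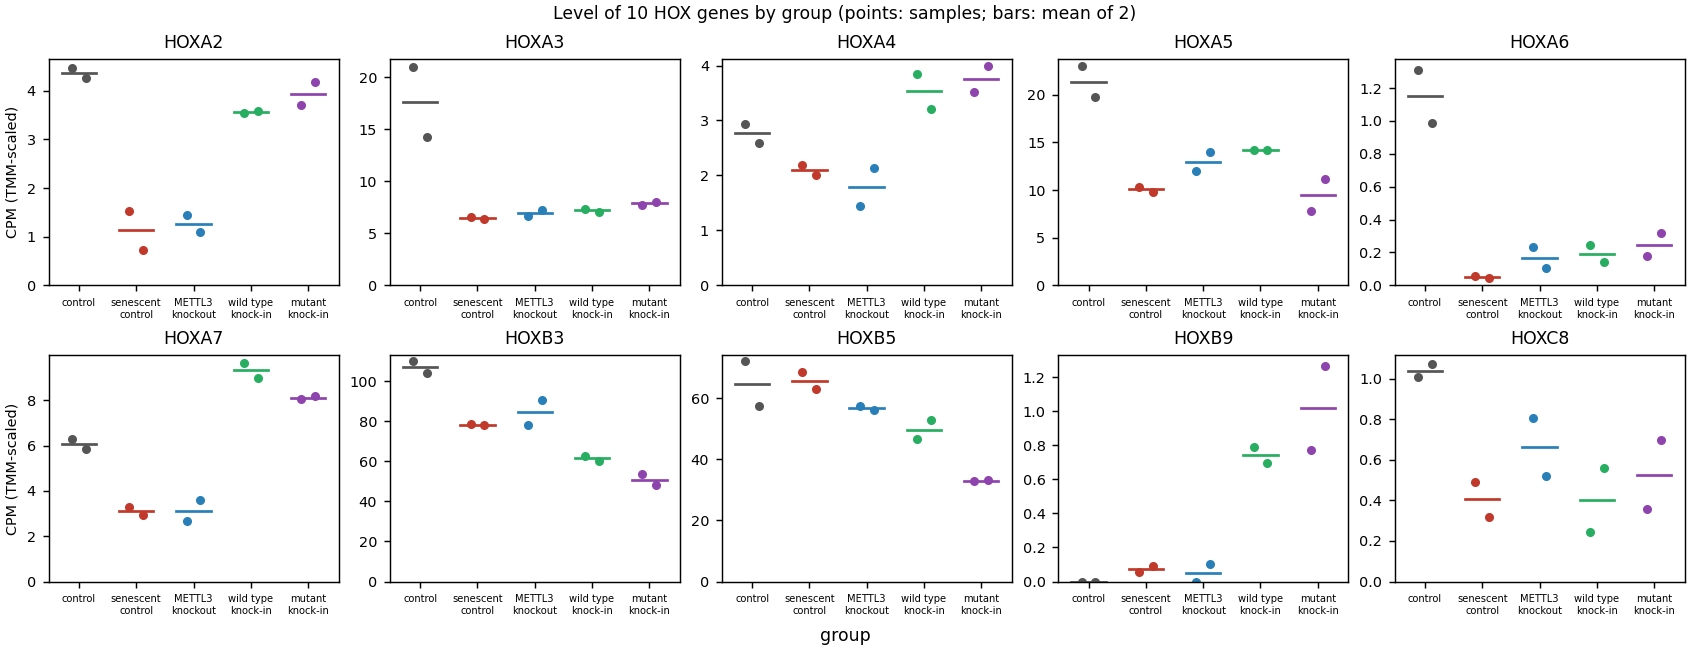
Expression (CPM) of 10 HOX genes, with 1 panel per gene and its own axis from 0, points for the 2 samples of each group and a bar at their mean. HOXA2 and HOXA7 are low in senescent control and the knockout and high in both knock-ins, HOXA3 stays between 6.35 and 7.98 CPM in all RAS samples, and HOXB3 falls to 48.0 and 53.7 CPM in the mutant knock-in.

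Promoters are shown for 4 HOXA genes: HOXA2, HOXA4 and HOXA7, which were higher in both knock-ins than in the knockout, and HOXA6, which was not called there. HOXA6 held at most 5 counts in each of these samples, too few to tell whether it rose. The sequences are the 250 bases before the RefSeq start on GRCh38.p14, written 5′ to 3′ on the gene's strand, with CG dinucleotides in capitals.
HOXA2 (chr7:27102684-27102933, minus strand): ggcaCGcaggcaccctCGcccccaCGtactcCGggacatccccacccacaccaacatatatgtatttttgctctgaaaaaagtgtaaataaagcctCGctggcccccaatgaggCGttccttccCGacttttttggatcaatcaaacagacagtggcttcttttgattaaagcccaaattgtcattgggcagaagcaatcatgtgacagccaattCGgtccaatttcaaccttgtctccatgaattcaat
HOXA4 (chr7:27130758-27131007, minus strand): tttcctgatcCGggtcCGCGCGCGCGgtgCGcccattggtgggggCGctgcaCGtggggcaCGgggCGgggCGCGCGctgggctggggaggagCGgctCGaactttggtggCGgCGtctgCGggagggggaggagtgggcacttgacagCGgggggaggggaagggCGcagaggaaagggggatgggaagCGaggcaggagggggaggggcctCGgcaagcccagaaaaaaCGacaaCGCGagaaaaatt
HOXA6 (chr7:27147775-27148024, minus strand): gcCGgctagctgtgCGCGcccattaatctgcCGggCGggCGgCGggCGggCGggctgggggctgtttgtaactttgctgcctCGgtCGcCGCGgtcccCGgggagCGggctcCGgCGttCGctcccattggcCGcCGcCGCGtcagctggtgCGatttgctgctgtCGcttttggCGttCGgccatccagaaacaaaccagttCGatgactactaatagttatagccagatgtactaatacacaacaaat
HOXA7 (chr7:27156676-27156925, minus strand): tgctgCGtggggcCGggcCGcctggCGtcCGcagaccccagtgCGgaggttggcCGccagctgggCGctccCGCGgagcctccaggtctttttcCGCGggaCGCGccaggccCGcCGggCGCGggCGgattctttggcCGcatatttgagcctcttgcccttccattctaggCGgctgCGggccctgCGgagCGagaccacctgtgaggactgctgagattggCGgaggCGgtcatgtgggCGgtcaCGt
HOXA2 held 8 CG dinucleotides, HOXA4 held 26, HOXA6 held 27 and HOXA7 held 28, where the median of 35116 RefSeq promoters was 11. CG dinucleotides are the sites of DNA methylation, and CG-rich promoters are common targets of Polycomb. By this count HOXA2 exceeded 43.7% of promoters, while HOXA4 exceeded 80.4%, HOXA6 82.3% and HOXA7 84.1%. The 3 genes that were higher in the knock-ins thus included the CG-poorest and the CG-richest of the 4. The HOX and PBX composite site TGATNNAT, searched on both strands, was found in HOXA2 and not in the other 3. It was in 3 of the 27 HOX promoter entries of the table, those of HOXA2, HOXB1 and HOXD11, and in 6.47% of all promoters. The AP-1 site TGANTCA was in 0 of the 27 HOX entries and in 6.57% of all promoters. Such matches are letters in this window and do not show binding.

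In HOXB, 2 of 8 tested genes fell in senescent control. HOXB3, a gene of the hindbrain and neck and the HOXB gene with the highest CPM, was at 109.8 and 104.05 CPM in control, 78.6 and 78.0 in senescent control, 78.1 and 90.5 in the knockout, 62.4 and 60.3 in the wild type knock-in and 53.7 and 48.0 in the mutant knock-in. Control was above all other samples, senescent control and knockout samples overlapped, and the knock-in samples were the lowest. The log2 fold change in senescent control was -0.45 (SE 0.10, adjusted p 0.00237). HOXB4, which supports the growth of blood stem cells, was at 29.5 and 27.2 CPM in control and 18.4 and 18.9 in senescent control. It fell by 0.60 on the log2 scale (SE 0.11, adjusted p 0.000825). HOXB2, HOXB5, HOXB6, HOXB7, HOXB8 and HOXB9 did not pass the test. HOXB7, which is known from several cancers, was at 16.5 and 17.0 CPM in control and 19.6 and 20.5 in senescent control, with a log2 fold change of 0.26 (SE 0.11, adjusted p 0.0787). With RLE or upper-quartile scaling in place of TMM, HOXB7 was called higher, the 1 HOX gene that was.

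HOXC8 was at 1.01 and 1.07 CPM in control and 0.494 and 0.320 in senescent control, from 23 and 24 against 9 and 7 counts. In the knockout it was at 0.808 and 0.522 CPM, in the wild type knock-in at 0.244 and 0.560 and in the mutant knock-in at 0.358 and 0.697. Control was above all other samples, and HOXC8 passed the filter through control and the knockout. The knockout was above senescent control, and each knock-in overlapped both. HOXC8 fell by 1.36 on the log2 scale in senescent control (SE 0.47, adjusted p 0.0334), but this call was lost when any 1 of the 4 samples was left out. The adjusted p was then 0.0569 without control replicate 1, 0.0663 without control replicate 2, 0.0651 without senescent control replicate 1 and 0.202 without senescent control replicate 2, and it was 0.163 with DESeq2.

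The second comparison set METTL3 knockout against senescent control. METTL3 RNA averaged 26.0 CPM in the knockout and 52.3 CPM in senescent control, so it was lowered and not lost. Of the 16 tested HOX genes, 1 fell and 0 rose, where 15.8% of all genes tested were called, 8.62% lower and 7.17% higher. The median log2 fold change was 0.10 for the HOX genes and 0.01 for all genes. HOXB7 was at 14.95 and 15.2 CPM in the knockout, below the 19.6 and 20.5 CPM of senescent control. It fell by 0.41 on the log2 scale (SE 0.12, adjusted p 0.0299). This call was lost without senescent control replicate 1 or 2 (adjusted p 0.111 and 0.179), without knockout replicate 1 or 2 (0.160 and 0.143) and with DESeq2 (0.0768). The log2 fold change of HOXA5, 0.37, did not pass the test (SE 0.16, adjusted p 0.153). HOXA2, HOXA4 and HOXA7 overlapped between the groups, and HOXA3, at 6.64 and 7.20 against 6.58 and 6.35 CPM, was not called.

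The third and the fourth comparisons set each knock-in against the same 2 knockout samples and asked what added METTL3, wild type or mutant, did. With wild type METTL3, 6 HOX genes rose and 1 fell, where 33.3% of all genes tested were called, 18.5% higher and 14.8% lower. With mutant METTL3, 5 rose and 5 fell, where 48.4% were called, 24.1% higher and 24.3% lower. Of the 13 genes over the filter in every group, 5 rose and 1 fell with wild type and 4 rose and 5 fell with mutant METTL3. HOXA2, HOXA4, HOXA7 and HOXB9 were among those that rose with both, of which HOXB9 passed the filter only through the knock-ins. Because the knockout samples are shared, the 2 comparisons are not independent.

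**Figure D4:**
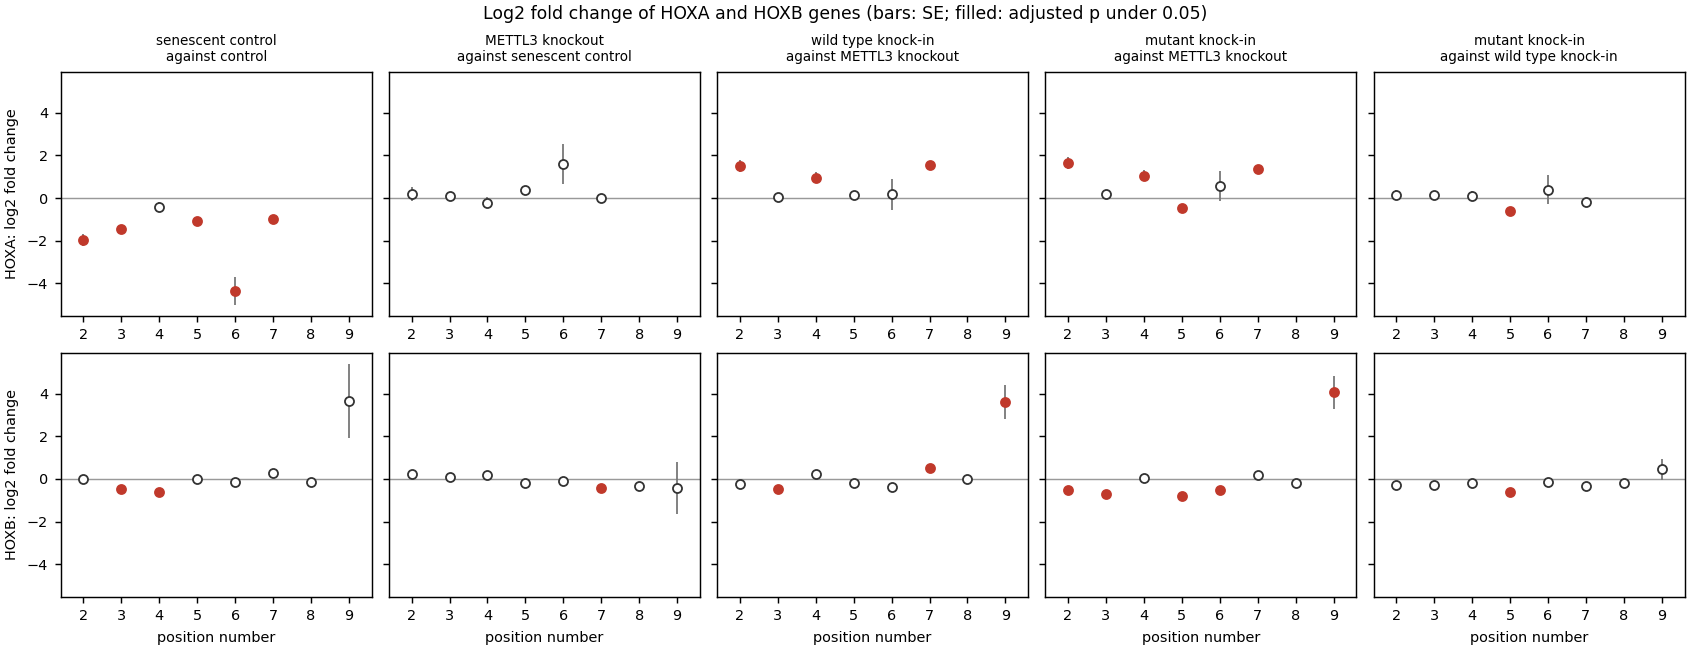
Log2 fold changes (points) with standard errors (bars) of HOXA genes (upper panels) and HOXB genes (lower panels) by position number in the 5 comparisons; called genes are filled. All HOXA points lie below 0 in senescent control against control, HOXA2, HOXA4 and HOXA7 lie above 0 in both knock-ins against the knockout, and HOXB2, HOXB3, HOXB5 and HOXB6 lie below 0 in the mutant knock-in.

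In HOXA, 4 of 7 tested genes rose in each knock-in. HOXA2 rose by 1.49 (SE 0.29, adjusted p 0.00171) with wild type and 1.63 (SE 0.29, adjusted p 0.000559) with mutant METTL3 on the log2 scale. HOXA7 rose by 1.56 (SE 0.17, adjusted p 3.32e-05) and 1.37 (SE 0.17, adjusted p 5.44e-05), to levels above control.

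HOXA4 was at 1.44 and 2.14 CPM in the knockout, 3.84 and 3.22 in the wild type knock-in and 3.52 and 3.99 in the mutant knock-in, so that the knock-in samples were above those of every other group. It rose by 0.96 (SE 0.24, adjusted p 0.00804) with wild type and by 1.06 (SE 0.24, adjusted p 0.00306) with mutant METTL3 on the log2 scale. The call with wild type METTL3 was lost without knockout replicate 1 (adjusted p 0.0876) or wild type knock-in replicate 1 (0.0540). HOXA3 and HOXA6, which had fallen in senescent control, did not pass the test in either knock-in. HOXA5 was not called with wild type METTL3 and fell by 0.46 with mutant METTL3 on the log2 scale (SE 0.17, adjusted p 0.0354). That call was lost without knockout replicate 2 (adjusted p 0.223), without mutant knock-in replicate 1 (0.284), with upper-quartile scaling (0.0601) and with DESeq2 (0.0652).

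HOXB9, the tested gene with the highest position number and known from thoracic patterning and the mammary gland, was near 0 outside the knock-ins. It held 0 and 0 counts in control, 1 and 2 in senescent control, 0 and 2 in the knockout, 13 and 15 in the wild type knock-in and 13 and 20 in the mutant knock-in. These were at most 0.104 CPM outside the knock-ins, 0.793 and 0.699 with wild type and 0.775 and 1.27 with mutant METTL3, with no overlap. From the counts, HOXB9 was 13.5-fold higher than in the knockout with wild type METTL3 (95% counting interval 3.41 to 117, 28 against 2 counts, adjusted p 0.00532). With mutant METTL3 it was 18.5-fold higher (4.73 to 159, 33 against 2 counts, adjusted p 0.00127). HOXB9 entered these tests only through the knock-ins, where it was high, so the adjusted p-values are not separate support for the rise.

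The low posterior gene HOXA11, which patterns the forearm and kidney, held 0 counts in senescent control and the knockout, 0 and 1 in control, 2 and 6 in the wild type knock-in and 3 and 9 in the mutant knock-in. Against a floor of 3 counts over the knockout samples, this was 2.57-fold higher with wild type and 4.48-fold higher with mutant METTL3. These values take the knock-in counts as exact and do not cover their counting error. HOXA11 was below the filter. Fitted without it, HOXA11 was called higher with wild type (adjusted p 0.0447) and mutant METTL3 (0.00463). HOXC13 held 5 and 3 counts in the mutant knock-in and 1 and 0 in the knockout, an 8.97-fold higher level with a 95% counting interval of 1.203 to 398.

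Of the HOXB genes, 1 fell with wild type METTL3 and 4 fell with mutant METTL3. HOXB3 fell by 0.46 with wild type (SE 0.10, adjusted p 0.0033) and 0.73 with mutant METTL3 (SE 0.10, adjusted p 8.44e-05) on the log2 scale. The call with wild type METTL3 was lost without knockout replicate 2 (adjusted p 0.0580), which left no HOX gene lower. HOXB5 was at 57.5 and 56.2 CPM in the knockout, 46.5 and 52.9 in the wild type knock-in and 32.7 and 33.2 in the mutant knock-in. The mutant samples were the lowest of all 10, and the log2 fold change against the knockout was -0.79 (SE 0.12, adjusted p 0.000167).

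HOXB2, a direct target of retinoic acid and hindbrain regulators, was at 60.9 and 57.1 CPM in the knockout, 45.6 and 53.4 with wild type and 37.8 and 44.5 with mutant METTL3. Its log2 fold change was -0.52 (SE 0.11, adjusted p 0.00235) with mutant METTL3 and -0.25 with wild type METTL3, which did not pass the test (SE 0.11, adjusted p 0.106). HOXB6, which is expressed in lung mesenchyme, was at 32.6 and 31.3 CPM in the knockout, 21.3 and 27.9 with wild type and 22.2 and 22.9 with mutant METTL3. It fell by 0.50 on the log2 scale with mutant METTL3 (SE 0.14, adjusted p 0.0117), and its log2 fold change of -0.37 with wild type METTL3 did not pass the test (SE 0.14, adjusted p 0.0608). Without wild type knock-in replicate 2, HOXB2 and HOXB6 were called lower with wild type METTL3, at adjusted p 0.0490 and 0.0158, which made 3 HOX genes lower. The call of HOXB6 with mutant METTL3 was lost without knockout replicate 1 (adjusted p 0.0676) or mutant knock-in replicate 1 (0.0728), and without the latter 3 HOX genes were lower. HOXB7 went the other way with wild type METTL3, at 20.1 and 22.8 CPM, rising by 0.52 on the log2 scale (SE 0.12, adjusted p 0.00485). That call was lost without wild type knock-in replicate 2 (adjusted p 0.0702).

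The fifth comparison, mutant against wild type knock-in, asked whether the mutation changed the outcome, in groups whose METTL3 levels also differed. HRAS differed between them too, with means of 46.1 CPM in the wild type and 26.7 CPM in the mutant knock-in. Of the 16 tested HOX genes, 2 fell and 0 rose, where 12.5% of all genes tested were called, 7.39% lower and 5.16% higher. HOXB5 fell by 0.59 on the log2 scale (SE 0.12, adjusted p 0.00929), with no overlap between the samples. HOXA5, at 14.2 and 14.2 CPM with wild type and 7.75 and 11.1 with mutant METTL3, fell by 0.59 (SE 0.16, adjusted p 0.0358). Both calls depended on single samples. The call of HOXB5 was lost without wild type knock-in replicate 2 (adjusted p 0.126), mutant knock-in replicate 1 (0.0723) or mutant knock-in replicate 2 (0.106). The call of HOXA5 was lost without any 1 of the 4 samples (adjusted p 0.105 and 0.204 without wild type replicates 1 and 2, 0.237 and 0.0561 without mutant replicates 1 and 2) and with upper-quartile scaling (0.0539). Without wild type knock-in replicate 2 or either mutant replicate, no HOX gene was lower, and without wild type knock-in replicate 1, 1 was.

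HOXA7, HOXB2, HOXB3, HOXB4, HOXB7 and HOXB8 were also lower in both mutant samples than in both wild type samples. HOXA2 and HOXA3 were higher in both. The share of all genes separated in this way was not computed, so the separation is not a result about HOX genes. None of the genes just named passed the test. The largest of these log2 fold changes were those of HOXB2 (-0.27, SE 0.11, adjusted p 0.134), HOXB3 (-0.27, SE 0.10, adjusted p 0.0921) and HOXB7 (-0.32, SE 0.12, adjusted p 0.0929). HOXA2, HOXA4 and HOXA7, which rose in both knock-ins, were not called between mutant and wild type METTL3.

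Exons of neighbouring HOX genes and antisense RNAs overlap, and since the strand setting of the counting is not given, reads of such pairs cannot be told apart. In GENCODE 29, 62.5% of the exon length of HOXA7 and 39.3% of that of HOXA6 overlapped HOXA-AS3 on the opposite strand. On its own strand, HOXA4 shared 31.0% of its exon length with an unnamed gene. HOXB4 shared 17.1% with another unnamed gene, HOXB3 and MIR10A together, and HOXB6 shared 16.6% with HOXB3. HOXA2, HOXA5, HOXB7, HOXB8, HOXB9 and HOXC8 had no overlap.

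Of 21 noncoding RNAs of the clusters, 5 were tested. HOTAIRM1, a HOXA RNA known from myeloid differentiation, was at 7.05 and 7.70 CPM in control, 6.85 and 7.53 in senescent control, 7.56 and 8.50 in the knockout, 21.5 and 22.1 in the wild type knock-in and 18.9 and 24.1 in the mutant knock-in. The knock-in samples were far above the other 6, of which both knockout samples lay above both senescent control samples and control overlapped each of these groups. HOTAIRM1 rose by 1.44 (SE 0.14, adjusted p 1.46e-05) with wild type and 1.42 (SE 0.14, adjusted p 9.03e-06) with mutant METTL3 on the log2 scale. In senescent control 3 of the 5 fell: HOXA-AS3 by 1.66, HOXA-AS2 by 1.16 and HOXB-AS3 by 0.46 on the log2 scale. HOXA-AS3 and HOXB-AS3 lost their calls with DESeq2 (adjusted p 0.164 and 0.191) and without control replicate 1 (0.0808 and 0.170). HOXA-AS3 also lost it without senescent control replicate 1 (0.130). HOXB-AS3 also lost it without senescent control replicate 2 (0.412), with RLE (0.0678) or upper-quartile scaling (0.0808), and when only the groups compared were fitted (0.161). HOXB-AS3 also fell by 0.90 with mutant METTL3 (adjusted p 0.00276). HOTAIR of the HOXC cluster and HOTTIP beside HOXA13 were at 0 counts in all 10 samples.

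HOX proteins bind DNA with TALE cofactors of the PBX, MEIS and PKNOX families. Of 9 tested, 5 fell and 0 rose in senescent control, 2 rose and 1 fell in the knockout, 2 rose and 3 fell with wild type METTL3, 2 rose and 4 fell with mutant METTL3, and 0 were called between mutant and wild type. MEIS2 fell by 0.89 (adjusted p 1.50e-05), from a mean of 39.2 to 21.1 CPM, and MEIS1 by 0.79 (adjusted p 1.88e-05) on the log2 scale in senescent control. In the knockouts with METTL3 added, PBX3 rose by 0.52 with wild type and 0.55 with mutant METTL3.

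All 27 Polycomb genes of the list that were found by symbol were tested, and PCGF2, also on the list, was not found. In senescent control 2 rose and 7 fell, in the knockout 2 rose and 3 fell, with wild type METTL3 6 rose and 3 fell, with mutant METTL3 8 rose and 5 fell, and between mutant and wild type 1 rose and 1 fell. EZH2, the methyltransferase of Polycomb complex PRC2, fell by 2.55 on the log2 scale in senescent control (SE 0.12, adjusted p 1.16e-08), from a mean of 27.2 to 4.63 CPM. It rose by 0.80 with wild type and 1.36 with mutant METTL3 against the knockout. Of 12 Trithorax and H3K27 demethylase genes, 2 rose and 4 fell in senescent control, 0 were called in the knockout, 2 rose and 1 fell with wild type METTL3, 5 rose and 4 fell with mutant METTL3, and 1 rose and 1 fell between mutant and wild type. KDM6B, which removes the mark that EZH2 writes, rose by 1.00 in senescent control, 1.25 with wild type and 1.71 with mutant METTL3 on the log2 scale.

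Of 18 retinoic acid and CDX genes, 10 were tested. In senescent control 3 rose and 7 fell, in the knockout 1 rose and 2 fell, with wild type METTL3 1 rose and 3 fell, with mutant METTL3 1 rose and 4 fell, and between mutant and wild type 0 rose and 1 fell. The retinoic acid receptor RARB rose by 2.54 in senescent control, and in each knock-in the called rise was RARA, by 0.70 with wild type and 1.03 with mutant METTL3, while RARG fell by 0.77 and 1.09 on the log2 scale. The background shares given for each comparison apply to these lists too, and nothing was tested on a list as a whole.

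**Figure D5:**
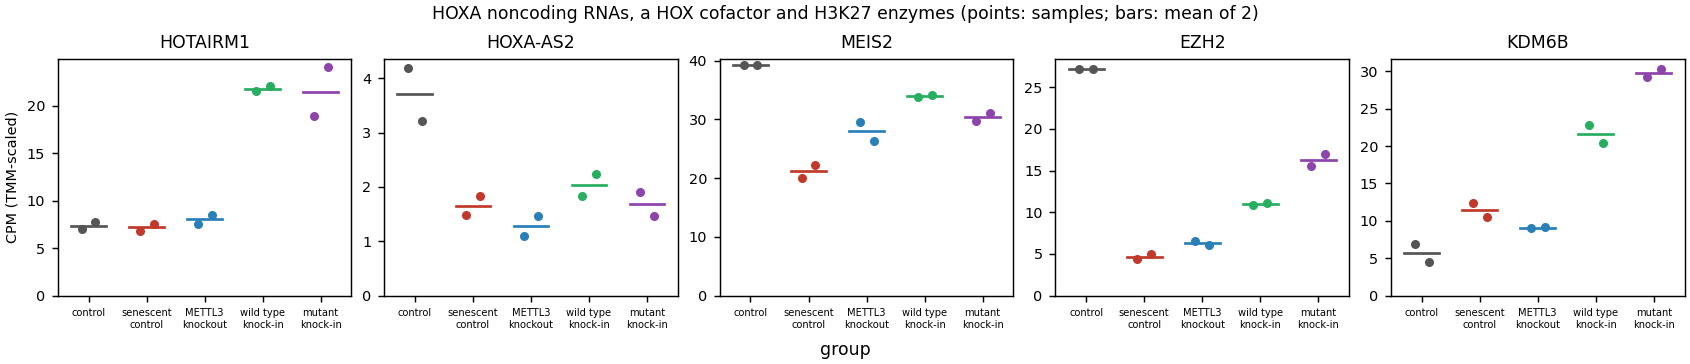
Expression (CPM, axes from 0) of HOTAIRM1, HOXA-AS2, MEIS2, EZH2 and KDM6B, with points for the 2 samples of each group and a bar at their mean. EZH2 drops from a mean of 27.2 to 4.63 CPM between control and senescent control, and HOTAIRM1 lies at 18.9 to 24.1 CPM in the knock-ins against 6.85 to 8.50 CPM elsewhere.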

How the data were processed

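RNA was sequenced from 10 IMR90 samples in 5 groups of 2, taken from the sample titles. Per the labels' protocols, cells were harvested 48 hours after the lentivirus, RNA was extracted with RNeasy and DNase I, and KAPA RNA HyperPrep libraries were made. The submitters' processing notes name Bowtie2, RSEM 1.2.12 and hg19. The authors deposited unnormalized counts of reads, as whole numbers, for each Ensembl gene. The annotation and strand setting are stated in none of the sources used here.

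Symbols were found for 39501 of the 57736 rows. Counts were fitted with edgeR 4.0.16 in R 4.3.3: TMM scaling, a minimum count of 10 in filterByExpr, which left 16760 genes, and 1 robust quasi-likelihood model over all 10 samples with 5 residual degrees of freedom. Genes were called at a Benjamini-Hochberg adjusted p below 0.05 over all genes tested. The fit was tested on simulated data. Standard errors are the absolute log2 fold change divided by the square root of F. The common biological coefficient of variation was 9.22%. Lengths and overlaps came from GENCODE 29, promoters from RefSeq on GRCh38.p14, where 20 HOX genes had an entry; no gene coordinates are given beside the authors' values, whose build differs.

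HOX genes called with a log2 fold change of 1 or more in size, or with the highest CPM of their cluster, were to be given in every sample; of other lists, up to 4 called genes a comparison with the largest change. Some genes of the lists are not reported here; counts and cluster sums cover all members. The members and lists were chosen with earlier results of these data known. Alternatives were RLE and upper-quartile scaling, DESeq2 1.42.0, no filter, only the groups compared, a replicate block, each sample left out, and raw totals without METTL3. Intervals cover counting error only. Of marker lists, 4 lung mesenchyme genes summed to 292 to 538 CPM, and immune markers, mostly CD68, to 66.8 to 79.5 CPM in control, senescent control and the knockout and 157 to 177 CPM in the knock-ins. Endothelial markers, mostly TEK, summed to 18.5 to 29.3 CPM.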

Additional observations from a re-analysis of the deposited data

How the results depend on the processing

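Of 280 alternative values of the 28 called HOX fold changes, 252 kept direction and call, 28 lost the call and 0 reversed. Of 80 values of 8 HOX fold changes that were not called, 9 passed the test in an alternative. Of 840 values for 84 called genes of the other lists, tried after seeing the data, 114 lost the call and 0 reversed. RLE and upper-quartile scaling gave 1 HOX gene higher in senescent control (HOXB7) in place of 0. Upper-quartile scaling gave 1 lower in mutant against wild type knock-in in place of 2. Without a filter 2 HOX genes were lower with wild type METTL3 in place of 1 (HOXB6 added), and 4 when only the groups compared were fitted (HOXB6, HOXB5 and HOXB2 added). For the knockout against senescent control, DESeq2 gave 0 lower in place of 1, and only the groups compared gave 2 lower (HOXB7, HOXB5) and 2 higher (HOXA5, HOXB2). Leaving out each sample in turn gave 0 lower in the knockout throughout, 0 to 3 lower with wild type METTL3, 3 to 5 lower with mutant METTL3 and 0 to 1 lower in mutant against wild type; the lone sample left is assumed to vary like the other groups. The cause of these changes was not tested.

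With raw totals without METTL3, summed HOXA was 52.6 CPM in the wild type and 48.1 CPM in the mutant knock-in, and summed HOXB was 289.2 CPM in the knockout, 254.8 CPM in the wild type and 215.6 CPM in the mutant knock-in. Upper-quartile scaling moved the split of all calls to 1452 higher and 1204 lower in the knockout (1202 and 1444 with TMM) and to 1056 higher and 773 lower in mutant against wild type (865 and 1238 with TMM). With the replicate number as a block, the HOX counts were 0 higher and 8 lower in senescent control, 0 and 1 in the knockout, 6 and 1 with wild type METTL3, 5 and 5 with mutant METTL3 and 0 and 2 in mutant against wild type, as without the block. Same-numbered samples did not deviate together (correlations -0.12 to 0.0608 over 10 pairs of groups), so the numbers were not taken as pairing. Depth limits the low genes: HOXB9, HOXA6, HOXC8 and all genes below the filter rest on at most 30 counts a sample.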

Other observations

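Of 18 genes that flank the clusters, 12 were tested. In senescent control 1 rose and 5 fell, in the knockout 1 rose and 1 fell, with wild type METTL3 2 rose and 2 fell, with mutant METTL3 2 rose and 5 fell, and between mutant and wild type 0 rose and 2 fell. LNPK, which lies beside the silent HOXD cluster and encodes a protein of endoplasmic reticulum junctions, was at 84.3 and 151 CPM in control, 124 and 138 in senescent control, 26.96 and 28.1 in the knockout, 38.0 and 37.9 in the wild type knock-in and 25.9 and 31.2 in the mutant knock-in. All samples of the knockout and of both knock-ins lay below all samples of control and senescent control. The cause was not tested. LNPK fell by 2.25 on the log2 scale in the knockout against senescent control (SE 0.23, adjusted p 0.000162 in edgeR), and it was not called in either knock-in against the knockout. CALCOCO1, which flanks HOXC, rose by 0.63 in the knockout, 0.59 with wild type and 0.55 with mutant METTL3 on the log2 scale.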
